A study of Drosophila melanogaster with 6 samples.

Results

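Peptidoglycan recognition proteins (PGRPs) are named for binding the cell wall polymer of bacteria, and some of them are also enzymes. The catalytic PGRPs of Drosophila are N-acetylmuramoyl-L-alanine amidases, which cut the stem peptide off the sugar chain, so that the fragment no longer triggers the immune receptors. They are described here across the 6 libraries of the series. The 6 members, PGRP-SC1a, PGRP-SC1b, PGRP-SC2, PGRP-LB, PGRP-SB1 and PGRP-SB2, were chosen by gene symbol, out of 17558 genes in the table and 13 genes named PGRP. Fly immunity has 2 main humoral arms, Toll and Imd. PGRP-LB, PGRP-SC1 and PGRP-SC2 are known as brakes on Imd, and several amidase genes are themselves Imd targets, expressed in gut and fat body.

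One group of flies is labelled as overexpressing the long non-coding RNA CR46018 (genotype Gal80ts; Tub> CR46018) and is called CR46018-labelled here. The control flies carried Gal80ts and Tub-Gal4 over the empty landing site P{CaryP}attP40. Both groups were adult males sampled 12 h after being injected with Micrococcus luteus, Gram-positive cocci whose lysine-type peptidoglycan is sensed mainly through Toll, and each had 3 libraries of polyadenylated RNA. The tubulin driver acts in most tissues, Gal80ts is a temperature-sensitive block of Gal4, and the labels do not say how many flies entered a library, from which tissue, or whether libraries came from separate batches. P-values therefore measure the spread between these libraries, which may be technical, and no uninfected flies stand beside them. An effect of CR46018 and any other difference between the genotypes cannot be told apart. In bulk RNA, fewer cells of a type and less RNA per cell cannot be told apart.

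By its title, the study asked how CR46018 acts on the Toll response. CR46018 itself had 3, 1 and 0 reads in CR46018-labelled replicates 1 to 3 and 0 reads in each control library, with p = 0.4 in an exact permutation test (two-sided, on log2 of FPKM + 1) that cannot go below 0.1 at this group size. These values do not show the labelled overexpression, and whether transcripts of the transgene fall within the counted gene is not known. Reads recovered from the FPKM values came to between 15988428 and 17396893 per CR46018-labelled library and between 15084193 and 16935563 per control library. Male accessory gland markers were present in every library, with summed levels of 1720 to 1857 FPKM in CR46018-labelled flies and 1752 to 2078 FPKM in controls, and of 5 genes looked for as female markers Yp1 and Yp2 were under 0.3 FPKM and Vm26Aa was listed at 0. The other two were detected. The yolk protein gene Yp3 measured 12.3, 7.88 and 9.88 FPKM in CR46018-labelled flies and 33.4, 31.3 and 32.6 FPKM in controls (limma, adjusted p = 0.000747), and the chorion gene Cp15 measured 3.02, 2.81 and 3.46 FPKM in CR46018-labelled flies and 3.43, 4.16 and 3.215 FPKM in controls (adjusted p = 0.419). Over all 12251 tested genes, 300 were higher and 773 lower in CR46018-labelled flies (limma, adjusted p under 0.05), with a median log2 difference of -0.002.

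The amidase genes lie in 3 places of the dm6 genome. PGRP-SC1a (2R, 8709733 to 8710320), PGRP-SC1b (2R, 8713446 to 8715094) and PGRP-SC2 (2R, 8716950 to 8717695) are intronless genes on the plus strand that together span 7963 bases. Their annotated proteins have 185, 185 and 184 residues. PGRP-SC1b has an additional transcript of 1649 bases beside one of 626 bases, so its FPKM divides by a longer exonic length than the 588 bases of PGRP-SC1a. PGRP-SB2 (3L, 16726541 to 16727288, plus strand) and PGRP-SB1 (3L, 16727299 to 16727989, minus strand) converge, with 10 bases between their 3′ ends. PGRP-LB (3R, 11452849 to 11460552, minus strand) has 6 transcripts that encode proteins of 215, 232 and 255 residues, and it lies inside the span of CG17230 on the other strand. None of the exonic bases of the 6 genes lies inside an annotated exon of another gene. The deposited values are per gene, so the transcripts of PGRP-LB were not separated.

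**Figure D1:**
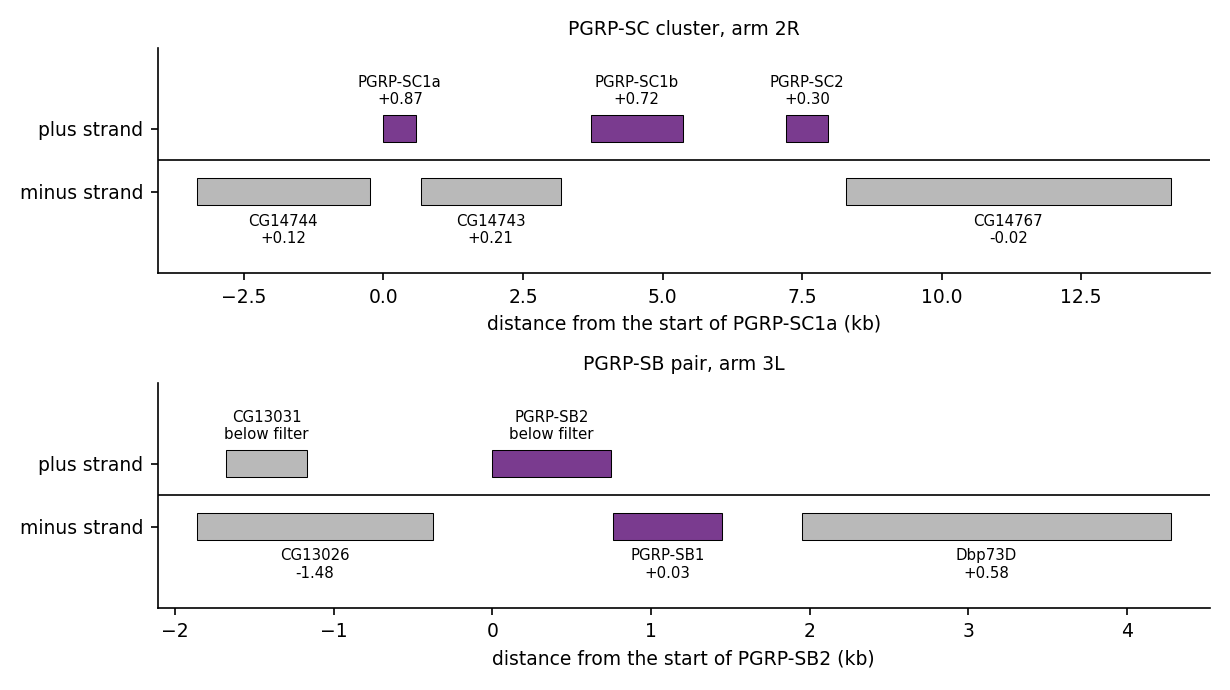
Map of the PGRP-SC cluster (upper) and the PGRP-SB pair (lower), with gene spans as boxes on the plus or minus strand against distance in kb; amidase genes are purple and neighbours grey. The number under each name is the log2 difference of FPKM + 1, labelled overexpression minus control, from 0.87 at PGRP-SC1a to -1.48 at CG13026.

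The members covered more than 3 orders of magnitude per length. PGRP-SB1 averaged 1197 ± 68.2 FPKM in CR46018-labelled flies and 1175 ± 106 FPKM in controls (SD, n = 3 each), which placed it at rank 52 of all genes by mean level. PGRP-SC2 was at rank 251 and PGRP-LB at rank 817. PGRP-SC1b, PGRP-SC1a and PGRP-SB2 stood at ranks 9763, 10648 and 12837. The order PGRP-SB1, PGRP-SC2, PGRP-LB, PGRP-SC1b, PGRP-SC1a, PGRP-SB2 held in all 6 libraries. Neighbours in this order had separate ranges within each group, except PGRP-SC1b and PGRP-SC1a, whose FPKM ranges touched in CR46018-labelled flies (4.16 to 5.85 against 2.98 to 4.19) but not in controls (2.22 to 2.98 against 1.17 to 1.69).

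Genes with a mean of at least 1 FPKM were tested with limma on log2(FPKM + 1), which left out PGRP-SB2. Of the 5 amidases tested, PGRP-SC1a and PGRP-SC1b rose in CR46018-labelled flies and 0 fell. Across all tested genes, 2.45% were called higher and 6.31% lower. At an unadjusted p under 0.05, 4 were higher and 0 lower, where 9.95% of all tested genes were higher. Also 4 were higher with limma-voom on recovered reads (3.82% of all genes), with every library scaled to one common FPKM total (6.74%) and with quantile normalization (3.26%). Without CR46018-labelled replicate 1, 2 or 3 the count was 2 each time (1.76, 1.89 and 1.12% of all genes), and without control replicate 1, 2 or 3 it was 3, 1 and 2 (1.32, 1.27 and 2.31%). With a mean of at least 5 FPKM required, only the 3 abundant amidases were tested and 0 passed (3.7% of all genes higher). All 5 log2 differences were above 0, with a median of 0.38, where 6054 of all 12251 tested genes were above 0. The differences were larger for PGRP-SC1a and PGRP-SC1b, which had low counted levels, than for the 3 abundant genes. Groups did not overlap for 3 of the 5, PGRP-SC1a, PGRP-SC1b and PGRP-LB, each time with the CR46018-labelled libraries higher, against 12.2% of all tested genes. This was not particular to the amidases, since it also held for 5 of the 6 non-catalytic PGRPs tested. The groups of PGRP-LB, and of PGRP-SA, PGRP-LE and PGRP-SD among the non-catalytic genes, were only narrowly apart.

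**Figure D2:**
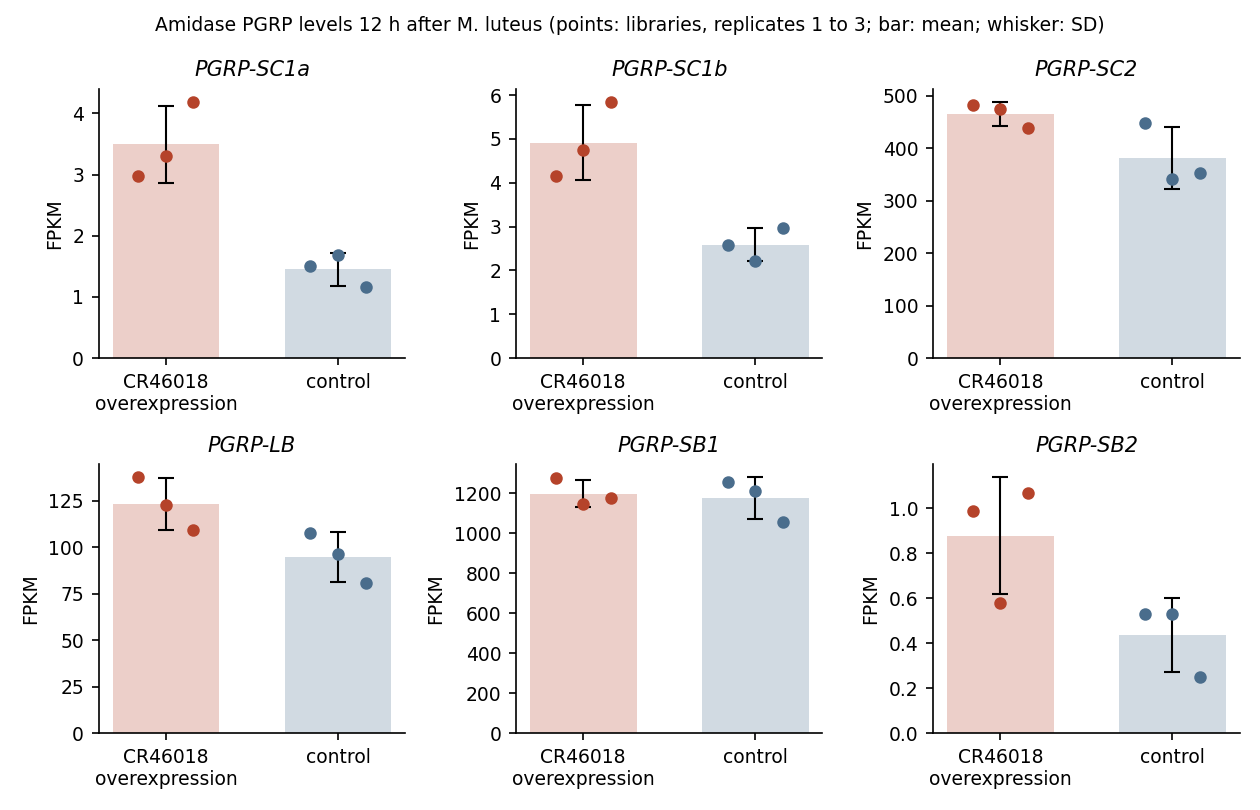
FPKM of each amidase gene in every library (points, replicates 1 to 3 from left to right), with the mean (bar) and SD (whisker) of 3 libraries per group; each panel has its own axis from 0. The CR46018-labelled points of PGRP-SC1a lie between 2.98 and 4.19 FPKM, above the control points between 1.17 and 1.69 FPKM, while those of PGRP-SB1 overlap.

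PGRP-SC1a, a secreted amidase, measured 2.98, 3.31 and 4.19 FPKM in CR46018-labelled replicates 1 to 3, against 1.50, 1.69 and 1.17 FPKM in control replicates 1 to 3. Every CR46018-labelled library was above every control library. The means were 3.49 ± 0.627 FPKM in CR46018-labelled flies and 1.45 ± 0.265 FPKM in controls (SD, n = 3 each), a 2.40-fold ratio of means, and the log2 difference was 0.87 ± 0.14 SE (limma, adjusted p = 0.00771). These levels rested on few reads, 36, 39 and 47 in CR46018-labelled flies and 17, 19 and 12 in controls. Scaled by library, the pooled reads gave a ratio of 2.38 with an exact 95% counting interval of 1.69 to 3.40. Here and below, such intervals cover counting error only.

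PGRP-SC1b, whose product is known to degrade staphylococcal peptidoglycan, measured 4.16, 4.75 and 5.85 FPKM in CR46018-labelled replicates 1 to 3, against 2.58, 2.22 and 2.98 FPKM in control replicates 1 to 3. The groups again did not overlap, and CR46018-labelled replicate 3 was the highest library for this gene as it was for PGRP-SC1a. The log2 difference was 0.72 ± 0.13 SE (limma, adjusted p = 0.0139), with a 1.90-fold ratio of means. The reads were 141, 157 and 184 in CR46018-labelled flies and 82, 70 and 86 in controls. Without control replicate 2 PGRP-SC1b just missed the threshold, and over 13 alternatives its adjusted p lay between 0.00332 and 0.0503. With a pseudocount of 5, which weighs on genes this low, the log2 differences were 0.39 for PGRP-SC1a and 0.38 for PGRP-SC1b, and both stayed past the threshold.

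PGRP-SC1a and PGRP-SC1b are near-identical copies, and the sources used here do not say how reads that fit both were counted. The division between them is therefore uncertain. If such reads were left out, the levels and ranks given here for both genes are too low. Summed over the pair, the libraries held 177, 196 and 231 reads in CR46018-labelled flies and 99, 89 and 98 reads in controls. PGRP-SC1a took 20.3, 19.9 and 20.4% of these reads in CR46018-labelled flies and 17.2, 21.4 and 12.2% in controls, so its share overlapped between the groups. The summed level was 8.41 ± 1.48 FPKM in CR46018-labelled flies and 4.05 ± 0.124 FPKM in controls, a log2 difference of 0.89, given without a test. The pair's pooled reads differed 1.98-fold (95% counting interval 1.72 to 2.28).

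PGRP-SC2, the third gene of the cluster and an amidase known from the gut, measured 481.8, 475.2 and 438.3 FPKM in CR46018-labelled replicates 1 to 3, against 448.6, 341.2 and 352.6 FPKM in control replicates 1 to 3. Control replicate 1 lay above CR46018-labelled replicate 3, so the groups overlapped. The log2 difference was 0.30 with a 95% interval of 0.06 to 0.53, and it did not pass (limma, adjusted p = 0.125). It passed with all libraries scaled to the same FPKM total (adjusted p = 0.047), with quantile normalization (adjusted p = 0.0422), with voom (adjusted p = 0.0383) and without control replicate 1 (log2 difference 0.42, adjusted p = 0.0165). Over 14 alternatives its adjusted p lay between 0.0165 and 0.304. Although the 3 PGRP-SC genes are neighbours, PGRP-SC2 exceeded PGRP-SC1a by 105-fold to 162-fold in CR46018-labelled flies and by 202-fold to 303-fold in controls, on the FPKM scale. These ratios would be too large if reads shared by PGRP-SC1a and PGRP-SC1b were left out of the counts.

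PGRP-LB, which prefers the DAP-type peptidoglycan of Gram-negative bacteria and limits Imd activation, measured 138.0, 122.7 and 109.5 FPKM in CR46018-labelled replicates 1 to 3, against 107.6, 96.2 and 81.0 FPKM in control replicates 1 to 3. The groups did not overlap, although CR46018-labelled replicate 3 and control replicate 1 were close. The log2 difference was 0.38 with a 95% interval of 0.11 to 0.64, and it did not pass (limma, adjusted p = 0.0887). It passed with rescaling to a common total (adjusted p = 0.0364), quantile normalization (adjusted p = 0.0455) and voom (adjusted p = 0.0186). It also passed with the replicate number as a block (limma, adjusted p = 0.0151), although whether these numbers pair the libraries is not known. With any single library left out, its adjusted p lay between 0.0601 and 0.203. Its within-group SD on the log2 scale was 0.186, compared with a median of 0.074 over the 500 tested genes nearest in level. For PGRP-SC2 the same pair of values was 0.161 and 0.077.

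**Figure D3:**
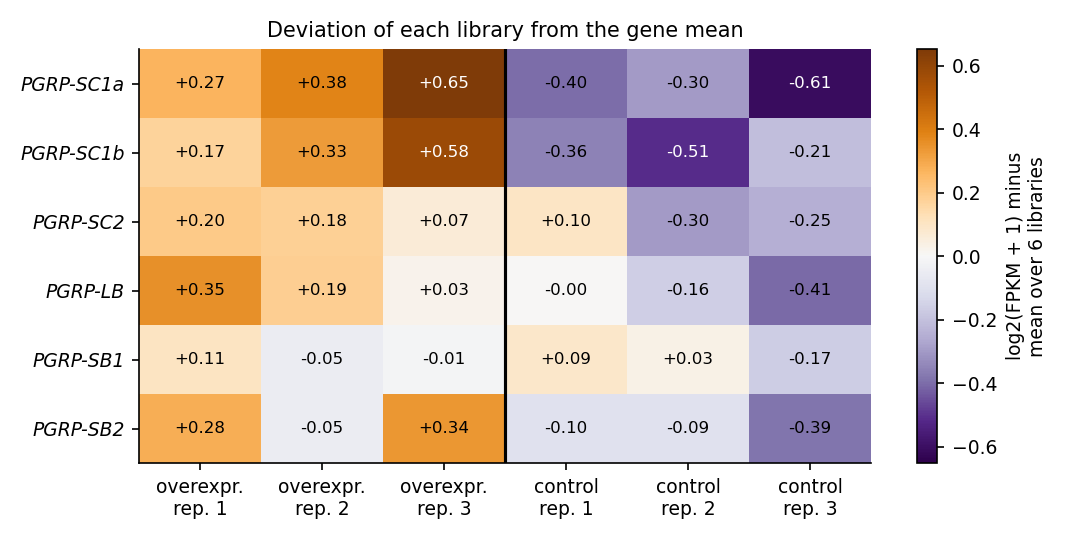
Heat map of log2(FPKM + 1) in each library (columns) minus the gene's mean over the 6 libraries, for the 6 amidase genes (rows); the line parts CR46018-labelled libraries, left, from control libraries. Values run from 0.65 for PGRP-SC1a in CR46018-labelled replicate 3 to -0.61 for the same gene in control replicate 3, and PGRP-SB1 stays between -0.17 and 0.11.

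PGRP-SB1, a secreted amidase that is strongly induced by bacterial infection, measured 1274, 1144 and 1174 FPKM in CR46018-labelled replicates 1 to 3, against 1258, 1212 and 1055 FPKM in control replicates 1 to 3. The groups overlapped widely. The log2 difference was 0.03 with a 95% interval of -0.16 to 0.21 (limma, adjusted p = 0.875), and it was negative without CR46018-labelled replicate 1 or without control replicate 3. It was the most deeply read member, with 11516 to 16330 reads per library.

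PGRP-SB2, the least expressed member, measured 0.989, 0.580 and 1.07 FPKM in CR46018-labelled replicates 1 to 3, against 0.529, 0.532 and 0.249 FPKM in control replicates 1 to 3. These values stood for 14, 8 and 14 reads in CR46018-labelled flies and 7, 7 and 3 reads in controls, and the groups did not overlap. Without the filter on low values its log2 difference was 0.38, with a 95% interval of 0.06 to 0.71 (limma, adjusted p = 0.182), and the pooled reads gave a ratio of 1.98 with a 95% counting interval of 1.08 to 3.76. Its convergent neighbour PGRP-SB1 had between 997 and 1785 reads for each read of PGRP-SB2 in CR46018-labelled flies and between 2065 and 3839 in controls. Whether the authors' counting used strand is not stated in those sources.

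Summed over the 6 genes, amidase FPKM came to 1795 ± 93.0 in CR46018-labelled flies and 1655 ± 163 in controls (SD, n = 3 each), with overlapping ranges of 1733 to 1902 and 1493 to 1819. PGRP-SB1 made up 65.4 to 67.8% of this sum in CR46018-labelled flies and 69.2 to 73.3% in controls. PGRP-LB made up 6.32 to 7.25% in CR46018-labelled flies and 5.42 to 5.92% in controls. The FPKM ratio of PGRP-SB1 to PGRP-LB, which does not depend on library scaling, was 9.23, 9.32 and 10.7 in CR46018-labelled flies and 11.7, 12.6 and 13.03 in controls, without overlap. The ratio of PGRP-SB1 to PGRP-SC2 was also lower in all CR46018-labelled libraries, at 2.41 to 2.68 against 2.80 to 3.55 in controls. Both ratios were chosen after their values were seen and were not tested.

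**Figure D4:**
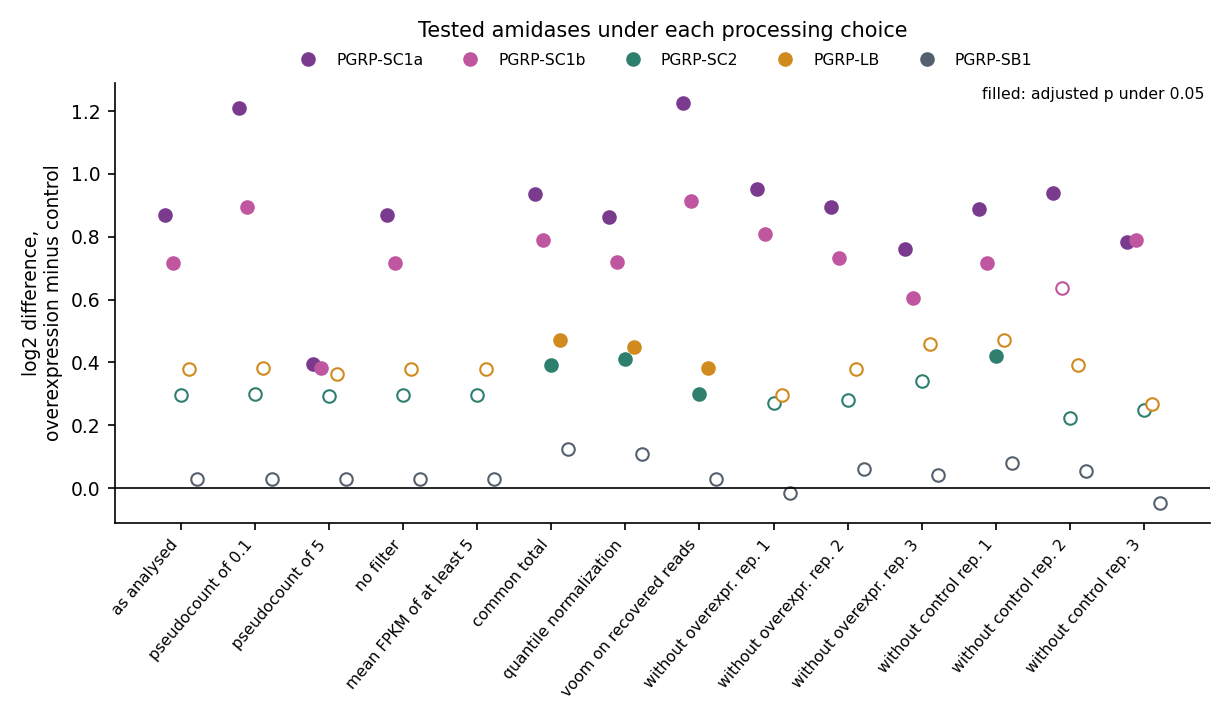
Log2 difference, labelled overexpression minus control, of the 5 tested amidases (colours) as analysed and under 13 other processing choices, with the replicate block not shown. Filled points have a limma adjusted p under 0.05. PGRP-SC1a is filled wherever it was tested, PGRP-SC1b is open without control replicate 2, and PGRP-SB1 lies between -0.05 and 0.13.

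None of the genes flanking the PGRP-SC cluster and PGRP-LB was called. In the PGRP-SC cluster, CG14743, which lies between PGRP-SC1a and PGRP-SC1b on the other strand, measured 3.595 ± 0.374 FPKM in CR46018-labelled flies and 2.96 ± 0.334 FPKM in controls (SD, n = 3 each; limma adjusted p = 0.264). CG14744, on the outer side of PGRP-SC1a, and CG14767, beyond PGRP-SC2, had log2 differences of 0.12 and -0.02 (limma, adjusted p = 0.578 and 0.837). That of CG14767 was above 0 under the common total and quantile normalization. Around PGRP-LB, the overlapping gene CG17230 had a log2 difference of 0.16 (adjusted p = 0.165) and sals, a sarcomere length regulator, -0.12 (adjusted p = 0.59), which turned positive without control replicate 2. The lncRNA gene lncRNA:CR45581, the next on the other side of PGRP-LB, was below the filter, at 0.735 ± 0.488 FPKM in CR46018-labelled flies and 1.12 ± 0.686 FPKM in controls.

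The PGRP-SB pair lay between called genes. CG13026 fell to 6.83, 8.403 and 5.97 FPKM in CR46018-labelled replicates 1 to 3, against 21.2, 21.4 and 21.4 FPKM in control replicates 1 to 3, a log2 difference of -1.48 ± 0.10 SE (limma, adjusted p = 0.000431). On the other side, Dbp73D, a DEAD-box RNA helicase gene, rose to 10.6, 9.73 and 11.4 FPKM in CR46018-labelled flies, against 7.08, 6.95 and 6.28 FPKM in controls, a log2 difference of 0.58 ± 0.08 SE (limma, adjusted p = 0.00455). The groups did not overlap for either gene. PGRP-SB1, between them, differed by 0.03.

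Among the 7 non-catalytic PGRPs, which are not known as amidases, 0 of 6 tested passed in either direction by limma, where 8.76% of all tested genes did. PGRP-LD was below the filter at 0.129 ± 0.0813 FPKM in CR46018-labelled flies and 0.137 ± 0.0612 FPKM in controls. At an unadjusted p under 0.05, 3 of the 6 were higher and 0 lower, where 9.95% of all tested genes were higher. Voom called 1 of 5 higher (3.82% of all genes), and rescaling to a common total gave 4 higher (6.74%). All 6 log2 differences were above 0, with a median of 0.21, where 6054 of all 12251 tested genes were above 0. Groups did not overlap for 5 of the 6, with the CR46018-labelled libraries higher, against 12.2% of all tested genes. PGRP-SA, the sensor of lysine-type peptidoglycan upstream of Toll, measured 101.2 ± 0.542 FPKM in CR46018-labelled flies and 94.5 ± 4.86 FPKM in controls (limma, adjusted p = 0.308). PGRP-SD, a co-sensor upstream of Toll, measured 735, 510.7 and 773.4 FPKM in CR46018-labelled replicates 1 to 3, against 507.9, 500.9 and 461.3 FPKM in control replicates 1 to 3 (adjusted p = 0.111). CR46018-labelled replicate 2 stood with the controls, and without it PGRP-SD passed (log2 difference 0.62, adjusted p = 0.00337). Over 14 alternatives its adjusted p lay between 0.00337 and 0.294.

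The Imd receptors PGRP-LC, at the cell surface, and PGRP-LE, inside the cell, had log2 differences of 0.25 and 0.11 (limma, adjusted p = 0.116 and 0.407). PGRP-LF, which blocks PGRP-LC, had one of 0.28 (adjusted p = 0.0812), and PGRP-LA one of 0.16 (adjusted p = 0.293). Summed FPKM of the non-catalytic genes ranged from 714.3 to 977 in CR46018-labelled flies and from 632.4 to 699.9 in controls. The 95% intervals of PGRP-LB, PGRP-SC2, PGRP-LC, PGRP-LF and PGRP-SD overlapped, and whether the amidases differ from the other PGRPs was not tested.

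**Figure D5:**
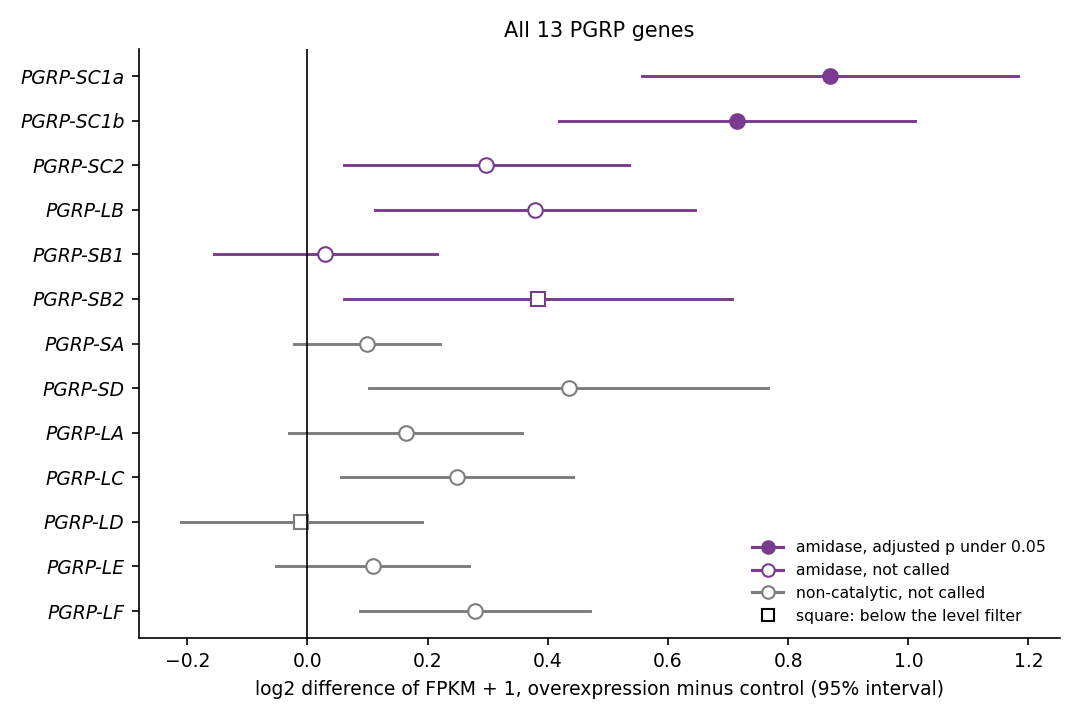
Log2 difference of FPKM + 1, labelled overexpression minus control, with its 95% interval, for the 6 amidase genes (purple) and 7 non-catalytic PGRPs (grey); filled points passed at an adjusted p of 0.05, and squares mark PGRP-SB2 and PGRP-LD, taken from the fit without the filter. PGRP-SC1a at 0.87 and PGRP-SC1b at 0.72 are the filled points.

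The rest of the Imd arm was counted on lists given here for context. Over all tested genes, 2.45% were higher and 6.31% lower by limma, 9.95% higher and 13.5% lower at an unadjusted p under 0.05, 3.82% higher and 8.09% lower by voom, and 6.74% higher and 3.95% lower with the common total. Of 13 Imd signalling genes 1 was higher and 0 lower by limma (list median 0.04). The count was 4 higher and 1 lower at an unadjusted p under 0.05, 2 higher and 0 lower by voom, and 3 higher and 0 lower with the common total. The one higher by limma was Diap2, a ubiquitin ligase of the pathway, at 92.4 ± 3.27 FPKM in CR46018-labelled flies and 76.1 ± 1.58 FPKM in controls (adjusted p = 0.0134), which did not pass when control replicate 1 was left out (adjusted p = 0.0575). Of 12 Imd negative regulators other than PGRPs 1 was higher and 0 lower by limma (median 0.01), with 2 higher and 1 lower at an unadjusted p under 0.05, 1 higher and 0 lower of 11 by voom, and 2 higher and 0 lower with the common total. The one higher by limma was pirk, which removes PGRP-LC from the cell surface, at 59.9, 48.2 and 53.9 FPKM in CR46018-labelled replicates 1 to 3, against 38.7, 39.2 and 41.0 FPKM in control replicates 1 to 3 (log2 difference 0.43, adjusted p = 0.0146). It missed the threshold without CR46018-labelled replicate 3, control replicate 1 or control replicate 2, with adjusted p up to 0.0534.

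Of 13 Imd-class peptide genes, 6 were higher and 0 lower (limma; list median 0.54), where 2.45% of all tested genes were higher. At an unadjusted p under 0.05 and by voom, 8 were higher and 0 lower. They include CecA2, a cecropin gene, at 347.8 ± 47.2 FPKM in CR46018-labelled flies and 93.3 ± 11.2 FPKM in controls, together with Def and edin, whose log2 differences were 1.62 and 0.72 (adjusted p = 0.00302 and 0.00492). Of the 13 log2 differences 9 were above 0. DptA, DptB, Dro and AttA were not called, at -0.11, -0.08, -0.15 and -0.06. The summed level of the list overlapped, at 38672.1 to 45041.9 FPKM in CR46018-labelled flies and 34283.8 to 41736.8 FPKM in controls. Of 16 matched Toll-class peptide genes 2 were higher and 5 lower (limma; median -0.16), where 2.45% of all tested genes were higher and 6.31% lower. Among them BomS6 and BomT3 fell by 0.81 and 0.63 on the log2 scale (limma, adjusted p = 0.00508 and 0.00695), and Dso2 rose by 0.71 (adjusted p = 0.0123). With rescaling to a common total, the Toll-class count was 2 higher and 2 lower (6.74 and 3.95% of all genes). It was 2 higher and 4 lower with quantile normalization (3.26 and 5.32%), and 2 higher and 6 lower by voom (3.82 and 8.09%). At an unadjusted p under 0.05 it was 3 higher and 7 lower (9.95 and 13.5%). Without 1 library it was 1 to 2 higher and 2 to 5 lower.

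Lysozymes attack the sugar backbone of peptidoglycan rather than its stem peptide. Of 13 tested lysozyme and lysozyme-like genes, 1 was higher and 1 lower (limma; list median -0.17), which is 15.4% called in either direction, where 8.76% of all tested genes were. The count was 1 higher and 3 lower of 12 by voom and 1 higher and 5 lower at an unadjusted p under 0.05, and 3 were lower with a mean of at least 5 FPKM required (8.75% of all genes). CG16756 fell to 19.0, 22.2 and 13.8 FPKM in CR46018-labelled replicates 1 to 3, against 56.1, 54.0 and 65.8 FPKM in control replicates 1 to 3 (log2 difference -1.64, adjusted p = 0.00122). CG6429 rose to 55.2 ± 2.25 FPKM, against 43.5 ± 0.887 FPKM in controls (adjusted p = 0.00743). The summed lysozyme level ranged from 1140 to 1517 FPKM in CR46018-labelled flies and from 1043 to 1445 FPKM in controls. CG7798 was listed at 0 in all libraries.

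Markers of gut, fat body and other tissues were counted the same way. Over all tested genes, 2.45% were higher and 6.31% lower by limma, and 9.95% higher and 13.5% lower at an unadjusted p under 0.05. By voom, 3.82% were higher and 8.09% lower. Of 19 tested midgut markers 2 were higher, 3 lower and 14 not called by limma (list median -0.14). With an unadjusted p under 0.05, 5 were higher and 6 lower, and by voom 5 were higher and 4 lower. Their summed level was 10382.7 to 10997.4 FPKM in CR46018-labelled flies and 8392.1 to 10029.6 FPKM in controls, without overlap. Of 5 tested fat body markers 0 were higher and 4 lower by limma (median -0.82), and likewise at an unadjusted p under 0.05 and by voom. Their summed levels were 84.2 to 125.6 FPKM in CR46018-labelled flies and 212.8 to 269.4 FPKM in controls. Of 9 tested hemocyte markers 0 were higher and 4 lower by limma (median -0.34). The count was 0 higher and 6 lower both at an unadjusted p under 0.05 and by voom. Their summed levels were 97.6 to 126.8 FPKM in CR46018-labelled flies and 156.6 to 166.6 FPKM in controls. None of these markers was at 0 in all libraries, and their part in the amidase values was not tested. With the common total (3.95% of all genes lower) and with quantile normalization (5.32%), fat body markers had 3 and 4 lower and hemocyte markers 3 and 4. Muscle markers had 1 of 7 lower under either of these scalings, but 4 of 7 by limma (median -0.42). At an unadjusted p under 0.05 and by voom, 6 of the muscle markers were lower. Malpighian tubule markers had 1 higher and 1 lower of 5 by limma (median -0.19), and 1 higher and 2 lower by voom. Of 4 tested neuron, 6 testis and 5 accessory gland markers, 0 were called by limma (medians 0.006, 0.024 and -0.075). By voom 0 were called of 2, 6 and 4. At an unadjusted p under 0.05, 1 accessory gland marker was lower.

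The genes nearest in pattern to each tested amidase were found from the root-mean-square distance between log2(FPKM + 1) values centred on each gene's mean over the 6 libraries. This distance includes the group difference, and shared regulation was not tested. For PGRP-SC1a they were lncRNA:CR45285 and mtrm, at distances of 0.122 and 0.125. Both were called higher (limma, adjusted p = 0.0121 and 0.0106). They averaged 0.551 and 0.705 FPKM in controls, so they met the 1 FPKM filter only through the CR46018-labelled libraries. mtrm encodes a regulator of Polo kinase in female meiosis. It was also next to PGRP-SC1b, at 0.099, behind lncRNA:CR43811 at 0.083, which measured 4.96 ± 0.79 FPKM in CR46018-labelled flies and 2.72 ± 0.127 FPKM in controls. For PGRP-SC2 the nearest were lncRNA:CR45961 (0.041) and CG3679 (0.046), and for PGRP-LB CG5849 (0.063) and CG33552 (0.068). lncRNA:CR45961 averaged 1.38 FPKM in CR46018-labelled flies and 0.937 FPKM in controls, so it too met the filter only through the CR46018-labelled libraries. PGRP-SB1 lay nearest to Nep1, a neprilysin gene, and Ugt304A1, a UDP-glycosyltransferase gene, at 0.015 and 0.024. No amidase was among the 2 nearest genes of another.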

How the data were processed

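Polyadenylated RNA of 3 libraries per group was sequenced in paired ends. Per the labels' protocols, the authors aligned reads with HISAT2 2.0.5, used featureCounts 1.5.0-p3 for gene counts and ran DESeq2. The submitters' processing notes name dm6. The deposited values are FPKM, one column per library. The sources used here do not give the annotation release, the strand setting or how multiple alignments were handled. Coordinates and exonic lengths came from Ensembl release 115 (BDGP6, dm6 coordinates). FPKM times exonic length gave whole reads in all 6 libraries, within 0.01 reads, for 97.6% of genes above 0 with a known length. Of the gene identifiers, 17252 matched a symbol and 306 did not.

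Tests used limma 3.58.1 (R 4.3.3; two-sided moderated statistics with an intensity trend) on log2(FPKM + 1) for the 12251 genes averaging 1 FPKM or more, and p-values were adjusted by Benjamini-Hochberg, with a threshold of 0.05. This scale understates the change of low genes. The procedure was tested on counts simulated with the same dispersion for every gene. That setting does not cover genes that spread more than others of their level, such as PGRP-LB and PGRP-SC2. Chi-square per degree of freedom between libraries of a group was at least 6.57, so none was a duplicate. The members and lists were chosen with earlier results of these data known. The text names the members, the non-catalytic PGRPs, up to 3 called genes with the smallest p per related list, the 2 nearest profiles, adjacent genes and CR46018. Other genes were chosen after their values were seen. Of 18 Toll-class peptides, 2 were not analysed here. Alternatives were other pseudocounts (0.1 and 5), no filter or one at 5 FPKM, a common total, quantile normalization, limma-voom on recovered reads, the replicate number as a block and leaving out each library.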

Additional observations from a re-analysis of the deposited data

How the results depend on the processing

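With FPKM rescaled to a common total, which moved the median of all genes by 0.085, 826 genes were higher and 484 lower, so 63.1% of calls were higher against 28% as deposited. Without 1 library, 137 to 283 were higher and 427 to 629 lower. Amidases called higher numbered 4 with the common total, quantile normalization or voom, 1 to 3 without 1 library, and 0 with a mean FPKM of at least 5, which leaves PGRP-SC1a and PGRP-SC1b untested. In the order common total, quantile normalization and voom, the log2 differences were 0.39, 0.41 and 0.30 for PGRP-SC2 and 0.47, 0.45 and 0.38 for PGRP-LB. Without 1 library they ranged from 0.61 to 0.81 for PGRP-SC1b, 0.22 to 0.42 for PGRP-SC2, 0.27 to 0.47 for PGRP-LB and -0.046 to 0.080 for PGRP-SB1. The sum of PGRP-SC1a and PGRP-SC1b differed by 0.56 with a pseudocount of 5. Differences near 0 turned sign for CG14767 (0.071 with the common total, 0.034 with quantile normalization, -0.042 to 0.0052 without 1 library), Nep1 (-0.058 to 0.078), Ugt304A1 (-0.0245 to 0.0714) and sals (-0.235 to 0.017); the cause was not tested. Whether replicate numbers pair the libraries is not known. Deviations of same-numbered libraries correlated across genes at 0.046, -0.076 and 0.026, and those of differently numbered ones at -0.109 to 0.084. Correlations over all genes cannot decide whether single genes varied with the replicate number. Blocking on the replicate number, 219 genes were higher and 616 lower, and PGRP-LB passed (log2 difference 0.38, adjusted p = 0.0151). Among the other named genes, 413 of 437 alternatives kept direction and side of the threshold. PGRP-SB2 and PGRP-SC1a rest on the fewest reads, which limits their precision.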
